A study of Mus musculus with 16 samples.

Results

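The transcripts of 9 genes of mast cells and basophils were followed in haematopoietic stem and progenitor cells of mouse bone marrow. The genes are Mcpt8, Cpa3, Ms4a2, Fcer1a, Prss34, Hdc, Cma1, Tpsb2 and Tpsab1, taken by name from a table of raw counts for 55291 genes, and all 9 were rows of that table. RNA came from Lin-cKit+Sca-1+ (LSK) cells purified with beads, 1 library per mouse, from C57BL/6 mice of 4 genotypes with 4 mice each. DM mice carried both the Asxl1Y588XTg transgene and the Srsf2P95H/+ allele, Asxl1Y588XTg mice carried the transgene alone, Srsf2P95H/+ mice carried 1 mutant copy of Srsf2, a splicing factor gene, and WT mice carried neither. The labels give no age, sex or batch, nor the promoter that drives the transgene. The design text lists 3 double mutants where 4 are labelled and counted, and none was left out. The short column name of the Asxl1Y588XTg mice was matched to its samples because it was the one group name left over.

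Mast cells and basophils are granulocytes that carry the high-affinity receptor for IgE. When antigen crosslinks the bound IgE, they release histamine and granule proteases and make leukotrienes and prostaglandins. Both arise from bone marrow progenitors that lie downstream of LSK cells, basophils complete their maturation in the marrow, and mast cells mature in tissues. Mcpt8 and Prss34 encode serine proteases characteristic of mouse basophils, Cma1 a chymase of connective tissue mast cells, and Tpsb2 and Tpsab1 mast cell tryptases. Cpa3 encodes carboxypeptidase A3, a granule exopeptidase of mast cells. Fcer1a and Ms4a2 encode the alpha and beta chains of the IgE receptor, and Hdc encodes histidine decarboxylase, which makes histamine.

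The genes lie on 6 chromosomes (GRCm38, GENCODE M21). Cma1 (55941451–55944675) and Mcpt8 (56082166–56085273) share the minus strand of chromosome 14 with 137490 bases between them. Prss34 (25298394–25300165), Tpsab1 (25343245–25345562) and Tpsb2 (25366305–25369098) lie together on chromosome 17. Cpa3 is on chromosome 3 (20215620–20242181), Ms4a2 on chromosome 19 (11615523–11623719), Fcer1a on chromosome 1 (173221284–173227214) and Hdc on chromosome 2 (126593667–126619299). No stretch of 100 bases in the exons of 8 of the genes occurred in the transcripts of another gene, and for Ms4a2 0.406% of such stretches also occurred in Ms4a4b. The annotated microRNA genes Mir6949 and Mir7007 lie within Mcpt8 and Cpa3 on the same strand.

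Promoter sequences from RefSeq (GRCm38.p6) were at hand for 7 of the 9 genes and were searched for AGATAA and TGATAA on both strands, the core of the motif bound by GATA factors. The 250 bases before the start of transcription are shown for the pair whose levels ran most closely together across the libraries, Prss34 and Mcpt8, and for Cpa3 and Ms4a2, the next closest pair. They are written 5′ to 3′ on the strand of the gene, with each match in capitals (TTATCT and TTATCA are the same motifs read from the other strand).
Prss34 (chr17:25298144-25298393, plus strand): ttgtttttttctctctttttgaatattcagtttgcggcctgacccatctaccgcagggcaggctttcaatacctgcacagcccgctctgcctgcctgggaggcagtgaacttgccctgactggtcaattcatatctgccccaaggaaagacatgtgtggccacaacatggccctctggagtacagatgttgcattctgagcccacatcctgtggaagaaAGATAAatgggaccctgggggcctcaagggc
Mcpt8 (chr14:56085198-56085447, minus strand): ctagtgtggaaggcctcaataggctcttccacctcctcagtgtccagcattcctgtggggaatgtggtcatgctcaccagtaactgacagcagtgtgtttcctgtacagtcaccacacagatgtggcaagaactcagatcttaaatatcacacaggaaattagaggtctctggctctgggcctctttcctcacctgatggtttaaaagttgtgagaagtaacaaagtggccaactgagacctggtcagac
Cpa3 (chr3:20242182-20242431, minus strand): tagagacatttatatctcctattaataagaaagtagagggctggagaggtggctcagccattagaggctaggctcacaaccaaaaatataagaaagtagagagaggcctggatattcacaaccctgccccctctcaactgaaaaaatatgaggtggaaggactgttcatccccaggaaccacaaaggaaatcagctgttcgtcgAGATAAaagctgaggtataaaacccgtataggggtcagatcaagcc
Ms4a2 (chr19:11623720-11623969, minus strand): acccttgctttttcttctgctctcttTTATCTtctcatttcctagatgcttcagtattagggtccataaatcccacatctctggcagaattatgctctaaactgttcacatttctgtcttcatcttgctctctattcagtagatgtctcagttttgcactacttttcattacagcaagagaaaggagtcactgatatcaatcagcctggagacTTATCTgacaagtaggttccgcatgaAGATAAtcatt
The motif began 31 bases before the start in Prss34 and 46 bases before it in Cpa3. Ms4a2 held it at 224, 37 and 11 bases, and Fcer1a at 92 bases. Mcpt8, Hdc and Cma1 held no match between 250 bases before and 50 bases after the start. In all, 4 of the 7 promoters held a match, and 19% of 27025 mouse promoters of the same length did. The E-box letters CANNTG, which read the same on both strands and can share their last bases with TGATAA, were in 6 of the 7 and in 72.1% of all promoters. Prss34 and Mcpt8, whose levels ran together most closely, differed in whether this window holds the GATA letters. Whether the motif bears on the levels was not tested.

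**Figure D1:**
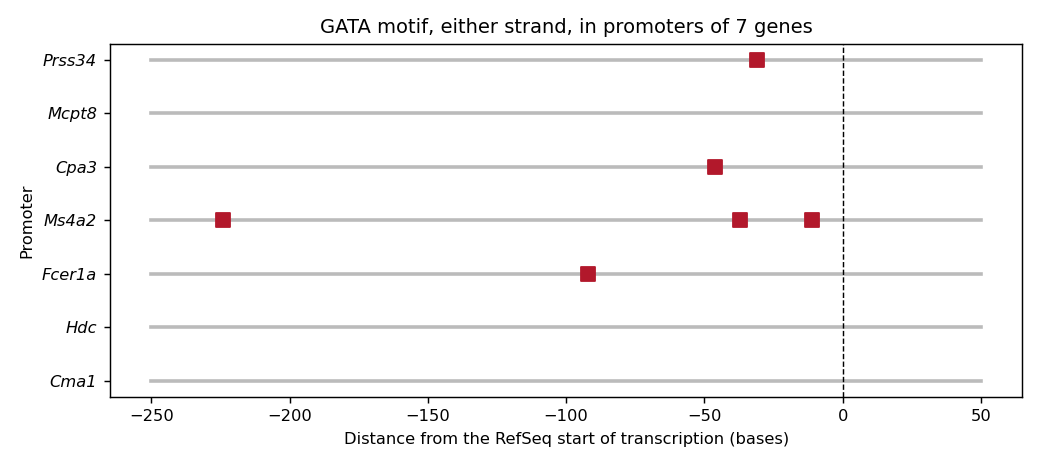
Each grey line is the promoter of a gene between 250 bases before and 50 bases after its RefSeq start (horizontal axis, bases from the start), and each red square is a match to AGATAA or TGATAA on either strand. Matches lie at 11 to 224 bases before the start in Prss34, Cpa3, Ms4a2 and Fcer1a, and none lie in Mcpt8, Hdc and Cma1.

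The libraries held 82991487 to 127596225 counts. Of 12 markers of LSK cells, 12 averaged above 1 CPM (counts per megacount of library, scaled by TMM) in each genotype, with Kit at 698.6 to 1211 CPM and Ly6a, the gene of Sca-1, at 23.2 to 54.3 CPM. Markers of other blood cells were measured too. The summed CPM of 10 eosinophil genes ran from 64.1 to 127 in DM, 51.7 to 320.8 in Asxl1Y588XTg, 80.8 to 504.4 in Srsf2P95H/+ and 44.4 to 1669 in WT, where WT 4 was the highest library and WT 3 the lowest. The 13 granulocyte-monocyte genes summed to 3898 to 7095 CPM in DM, 2338 to 5542 in Asxl1Y588XTg, 4573 to 6451 in Srsf2P95H/+ and 1245 to 4630 in WT. The 8 dendritic cell genes, which include Flt3, also an LSK marker, summed to a median of 523.4 CPM in DM, 479.8 in Asxl1Y588XTg, 543.2 in Srsf2P95H/+ and 858.4 in WT. Of the WT libraries WT 3 was the highest for these genes, at 954 CPM. The medians of 8 B lineage genes were 271.6 CPM in DM, 240.8 in Asxl1Y588XTg, 226.1 in Srsf2P95H/+ and 277.8 in WT. The medians of 8 T and NK cell genes were 146.6 CPM in DM, 116.2 in Asxl1Y588XTg, 135.2 in Srsf2P95H/+ and 115.4 in WT. For 8 erythroid genes they were 74.2 CPM in DM, 41.9 in Asxl1Y588XTg, 50.5 in Srsf2P95H/+ and 64.9 in WT, and for 8 megakaryocyte genes 318.6 CPM in DM, 241.4 in Asxl1Y588XTg, 213.2 in Srsf2P95H/+ and 194.1 in WT. The part of these other cells in the results was not tested.

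The 9 genes together made up 0.0129% to 0.0722% of a library's counts. On a scale of CPM per kilobase of exon, averaged over the 16 libraries, Prss34 was the most abundant at 114.8, followed by Mcpt8 at 74.8 and Cpa3 at 30.2. Fcer1a stood at 12.8, Ms4a2 at 5.88 and Hdc at 5.48 CPM per kilobase. The chymase gene Cma1 and the tryptase gene Tpsb2 were far lower, at 0.631 and 0.403 CPM per kilobase. Tpsab1 was at 0.00666 CPM per kilobase. Within each library Prss34 took 27.5% to 57.7% of the counts of the 9 genes, and 1.37 to 2.49 counts of Prss34 were found per count of Mcpt8. The low-count filter kept 8 of the 9 genes among 22749 genes tested and removed Tpsab1.

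Prss34 had 60.6, 145, 182 and 106.5 CPM in the 4 DM libraries and 334, 104, 94.3 and 49.8 CPM in the 4 Asxl1Y588XTg libraries. It had 195.4, 65.7, 63.4 and 88.8 CPM in Srsf2P95H/+ and 235, 142, 64.2 and 311 CPM in WT. Asxl1Y588XTg 1 and WT 4 were the highest libraries, Asxl1Y588XTg 4 was the lowest, and all 4 genotypes overlapped.

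Mcpt8 put the libraries in the same order as Prss34 within each genotype except Srsf2P95H/+. Its levels were 44.1, 85.4, 89.6 and 67.1 CPM in DM, 134.1, 66.6, 50.4 and 28.6 CPM in Asxl1Y588XTg, 104.8, 40.7, 45.3 and 52.9 CPM in Srsf2P95H/+, and 114.1, 74.4, 38.5 and 157 CPM in WT. Again WT 4 and Asxl1Y588XTg 1 were the highest 2 libraries, Asxl1Y588XTg 4 was the lowest, and the genotypes overlapped.

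Cpa3 had 33.8, 36.8, 52.75 and 52.15 CPM in DM, 48.1, 37.25, 25.55 and 19.7 CPM in Asxl1Y588XTg, 65.9, 31.4, 37.5 and 34.9 CPM in Srsf2P95H/+, and 60.6, 81.8, 35.0 and 79.6 CPM in WT. Of the WT libraries, WT 1, WT 2 and WT 4 were above every DM and Asxl1Y588XTg library, and WT 3 lay within their range. Ms4a2 had 13.7, 15.5, 19.7 and 15.97 CPM in DM, 17.25, 13.45, 9.88 and 4.53 CPM in Asxl1Y588XTg, 22.7, 10.99, 19.0 and 12.2 CPM in Srsf2P95H/+, and 22.2, 21.6, 7.62 and 38.5 CPM in WT. WT 3 was again far below the other WT libraries, and the groups overlapped.

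Fcer1a and Hdc overlapped between all 4 genotypes. Fcer1a ranged from 10.98 to 20.9 CPM in DM, 6.60 to 16.05 CPM in Asxl1Y588XTg, 9.28 to 23.45 CPM in Srsf2P95H/+ and 3.29 to 20.8 CPM in WT. Hdc ranged from 28.2 to 56.3 CPM in DM, 16.9 to 39.2 CPM in Asxl1Y588XTg, 31.5 to 50.95 CPM in Srsf2P95H/+ and 12.1 to 49.9 CPM in WT. For both genes WT 3 was the lowest of the 16 libraries.

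The chymase gene Cma1 was rare. It had 0.540, 0.109, 0.334 and 0.568 CPM in DM, 0.0838, 0.0657, 0.281 and 0.204 CPM in Asxl1Y588XTg, 0.04, 2.035, 0.728 and 0.175 CPM in Srsf2P95H/+, and 2.702, 0.732, 0.697 and 1.70 CPM in WT. All 4 WT libraries were above all 4 DM and all 4 Asxl1Y588XTg libraries, and the Srsf2P95H/+ libraries spanned almost the whole range. These levels rest on 183 counts in DM, 61 in Asxl1Y588XTg, 270 in Srsf2P95H/+ and 572 in WT, each summed over 4 mice. The tryptase gene Tpsb2 had 0.468, 0.0365, 0.795 and 0.354 CPM in DM, 0, 0.0766, 0.7035 and 0.0584 CPM in Asxl1Y588XTg, 0.13, 2.62, 0.496 and 0.0103 CPM in Srsf2P95H/+, and 2.85, 0.216, 0.282 and 1.19 CPM in WT. WT 1 and Srsf2P95H/+ 2 were the highest libraries for both Cma1 and Tpsb2. The 0 of Asxl1Y588XTg 1 allows up to 3 counts, or 0.0314 CPM, which covers counting error only.

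Tpsab1, the second tryptase gene, had 1 count in DM 3, 14 counts in Srsf2P95H/+ 3, 1 count in Srsf2P95H/+ 4 and 7 counts in WT 4. The other 12 of the 16 libraries had 0 counts, which allow up to 0.0235 to 0.0360 CPM. An exact two-sided permutation test of the mean CPM gave p = 0.4286 to 1 over 5 comparisons (adjusted p = 1 in each). The smallest p of 4 mice against 4, 0.0286, could not be reached here, since 12 of the 16 libraries shared the value 0. The outcome was largely fixed by these zeros, so the test decides nothing about Tpsab1.

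**Figure D2:**
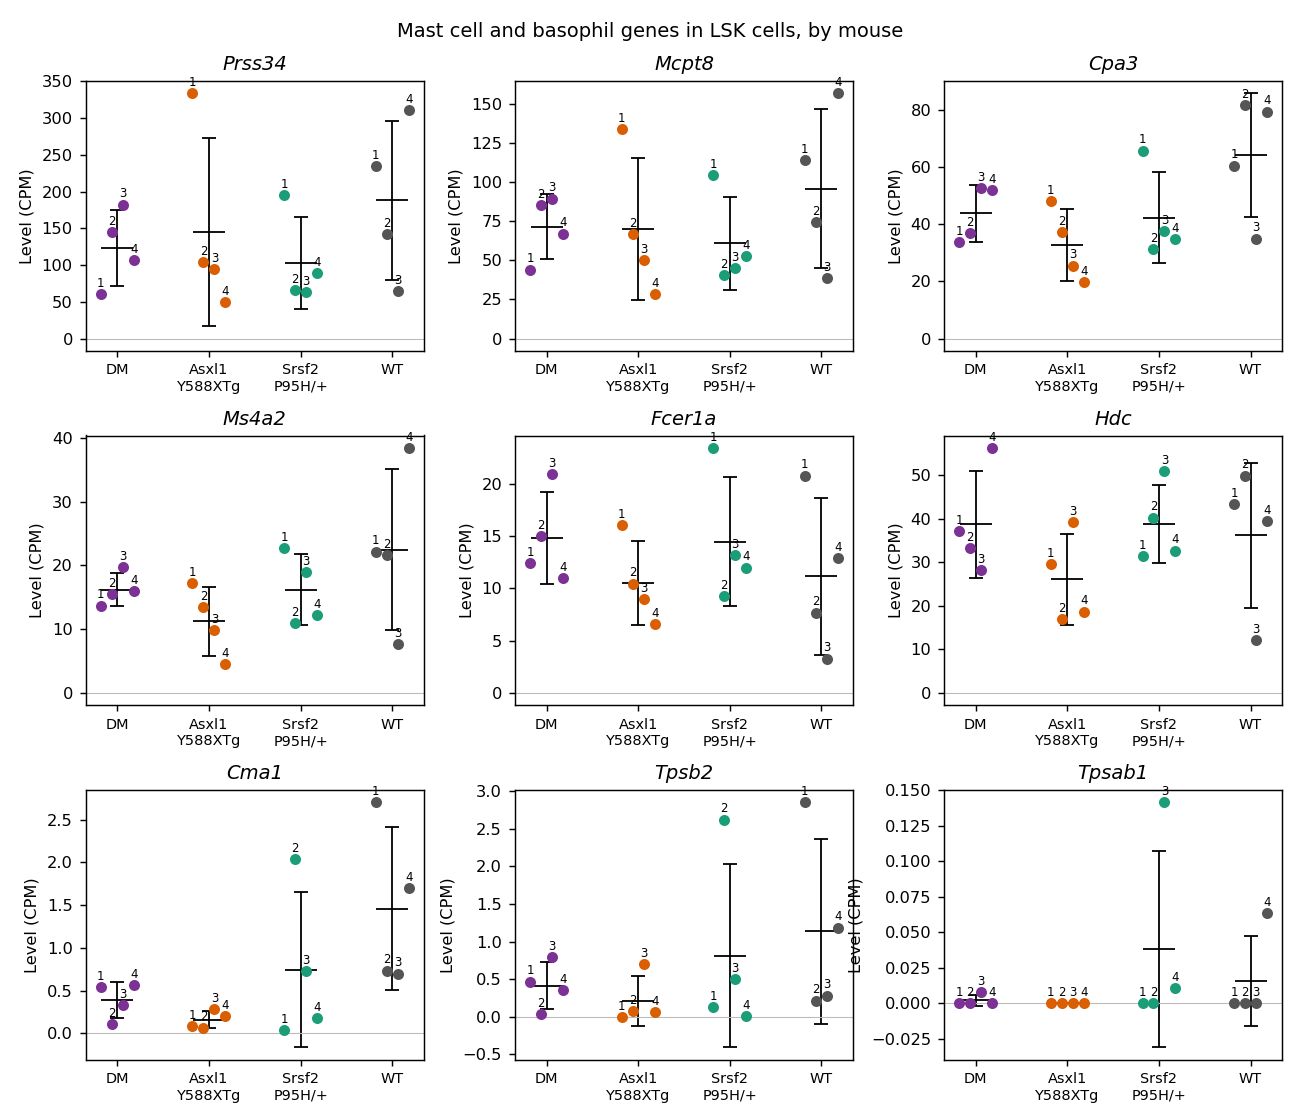
Each panel shows 1 gene, with its level in CPM on a linear vertical axis, 1 numbered point per mouse in each genotype, and the mean and SD of 4 mice as a black dash with bars. The genotypes overlap in every panel except for Cma1, where the DM libraries (up to 0.568 CPM) and the Asxl1Y588XTg libraries (up to 0.281 CPM) lie below all WT libraries (0.697 CPM or more).

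Of the 8 genes tested, 6 had their highest genotype mean in WT and 6 had their lowest in Asxl1Y588XTg. Fcer1a was highest in DM and Hdc in Srsf2P95H/+, while Mcpt8 and Prss34 were lowest in Srsf2P95H/+. Genotypes next to each other in these orders did not pass the test in any of 24 comparisons (smallest adjusted p = 0.284, edgeR). For the pairs of Srsf2P95H/+ and Asxl1Y588XTg, 2.24% of all genes tested were called.

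The first comparison asked what the Asxl1Y588XTg transgene alone does. All 8 genes had a lower fitted level in Asxl1Y588XTg than in WT, with a median log2 fold change of -0.73, against -0.04 over all genes tested. The sign of Fcer1a turned with limma-voom (0.23), without WT 1 (0.40) and without Asxl1Y588XTg 4 (0.08), and those of the other 7 held in every alternative. None passed an adjusted p of 0.05 in edgeR's quasi-likelihood test, where 1.88% of all genes did, and 3 of the 8 had an unadjusted p under 0.05, against 21.5% of all genes. The 3 were Cma1, Cpa3 and Ms4a2. Cma1 averaged 0.159 ± 0.102 CPM in Asxl1Y588XTg and 1.46 ± 0.951 CPM in WT (SD, n = 4 each), a log2 fold change of -3.19 with a standard error (SE) of 0.94 (edgeR adjusted p = 0.0851). Its libraries did not overlap between the genotypes, as for 8.98% of all genes tested.

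Cpa3 averaged 32.6 ± 12.6 CPM in Asxl1Y588XTg and 64.3 ± 21.7 CPM in WT (log2 fold change -0.98, SE 0.34, edgeR adjusted p = 0.123). Ms4a2 averaged 11.3 ± 5.41 CPM in Asxl1Y588XTg and 22.5 ± 12.6 CPM in WT (log2 fold change -0.99, SE 0.45, edgeR adjusted p = 0.220). The fold changes of the others were -2.43 for Tpsb2 (SE 1.47), -0.47 for Hdc, -0.46 for Mcpt8, -0.37 for Prss34 and -0.08 for Fcer1a, all on the log2 scale. That of Tpsb2 was -4.62 without Asxl1Y588XTg 3 and -1.43 without WT 1, and that of Prss34 was -1.16 without Asxl1Y588XTg 1 and -0.01 without WT 4. DESeq2, run as an alternative, called 2 of these genes, Cma1 (adjusted p = 0.0139) and Cpa3 (adjusted p = 0.0242). Over all genes it called 1722 of 21795, against 428 of 22749 in edgeR. Neither DESeq2 nor limma-voom called any of the 8 in the other 5 comparisons. Over 24 alternatives the adjusted p of Cma1 ran from 0.0139 to 0.224, and over 25 that of Cpa3 ran from 0.0242 to 0.321. Since the libraries are bulk RNA, fewer cells of a type and less RNA per cell cannot be told apart.

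The second comparison asked what Srsf2P95H/+ alone does. Here 6 of the 8 genes had a lower and 2 a higher fitted level in Srsf2P95H/+ than in WT, with a median log2 fold change of -0.54, against -0.05 over all genes. None was called, where 0.506% of all genes were, and none had an unadjusted p under 0.05 in edgeR, where 25.3% of all genes did. Cpa3 had the smallest adjusted p. It averaged 42.4 ± 15.8 CPM in Srsf2P95H/+, against 64.3 ± 21.7 CPM in WT (log2 fold change -0.60, SE 0.33, edgeR adjusted p = 0.283). Prss34 averaged 103 ± 62.5 CPM in Srsf2P95H/+, against 187.9 ± 107.6 CPM in WT (log2 fold change -0.86, SE 0.64), and Mcpt8 averaged 60.9 ± 29.7 CPM in Srsf2P95H/+, against 96.0 ± 51.1 CPM in WT (log2 fold change -0.66, SE 0.52). The log2 fold changes of the others were -0.97 for Cma1, -0.48 for Tpsb2, -0.47 for Ms4a2, 0.38 for Fcer1a and 0.10 for Hdc.

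The third comparison asked what both mutations together do. In DM 6 of the 8 genes had a lower and 2 a higher fitted level than in WT, with a median log2 fold change of -0.51, against -0.02 over all genes. None was called, where 9.39% of all genes were, and 1 of the 8 had an unadjusted p under 0.05, against 30.6% of all genes. That gene was Cma1, at 0.388 ± 0.213 CPM in DM and 1.46 ± 0.951 CPM in WT (log2 fold change -1.91, SE 0.87, edgeR adjusted p = 0.155). Its libraries did not overlap between DM and WT, as for 18.6% of all genes.

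The 3 most abundant genes had lower means in DM, by less than 2 standard errors each. Prss34 averaged 123.5 ± 52.1 CPM in DM and 187.9 ± 107.6 CPM in WT (log2 fold change -0.61, SE 0.64). Mcpt8 averaged 71.6 ± 20.8 CPM in DM and 96.0 ± 51.1 CPM in WT (log2 fold change -0.42, SE 0.51). For Cpa3 the means were 43.9 ± 9.98 CPM in DM and 64.3 ± 21.7 CPM in WT (log2 fold change -0.55, SE 0.33). The log2 fold changes of the others were -1.45 for Tpsb2, -0.47 for Ms4a2, 0.41 for Fcer1a and 0.10 for Hdc. These 3 comparisons share the WT libraries.

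The next comparisons asked what the second mutation adds to the first. Against Asxl1Y588XTg, 7 of the 8 genes had a higher and 1 a lower fitted level in DM, with a median log2 fold change of 0.51, against -0.0036 over all genes. None was called, where 1.08% of all genes were, and none had an unadjusted p under 0.05, where 17.8% of all genes did. The most abundant 3 genes differed by 0.43 for Cpa3 (SE 0.33), 0.03 for Mcpt8 (SE 0.51) and -0.24 for Prss34 (SE 0.64) on the log2 scale. Against Srsf2P95H/+, 5 had a higher and 3 a lower fitted level in DM, with a median of 0.02, against -0.01 over all genes. None was called, where 0.246% of all genes were, and none had an unadjusted p under 0.05, where 6.48% of all genes did. Here Prss34 differed by 0.26 (SE 0.64), Mcpt8 by 0.23 (SE 0.51) and Cpa3 by 0.05 (SE 0.33) on the log2 scale.

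The interaction, DM minus both single mutants plus WT on the log2 scale, asks whether the combined change differs from the sum of the single ones. It was positive for all 8 genes, with a median of 0.84, against 0.03 over all genes. The smallest was that of Fcer1a, at 0.12 (SE 0.66). Here, as in Asxl1Y588XTg versus WT, the signs of the 8 genes are not separate results. Prss34, Mcpt8, Cpa3 and Ms4a2 ran together from mouse to mouse (r = 0.76 to 0.98). The WT libraries enter both single-mutant changes with a minus sign and the interaction with a plus sign. None of the 8 genes was called, and edgeR called 0% of all genes. At an unadjusted p under 0.05 there was 1 of the 8 genes, against 11.7% of all genes. That gene was Cpa3, with an interaction of 1.03 (SE 0.47, edgeR adjusted p = 0.424). For Mcpt8 it was 0.69 (SE 0.73) and for Prss34 0.63 (SE 0.90). DESeq2 called 53 genes in the interaction.

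**Figure D3:**
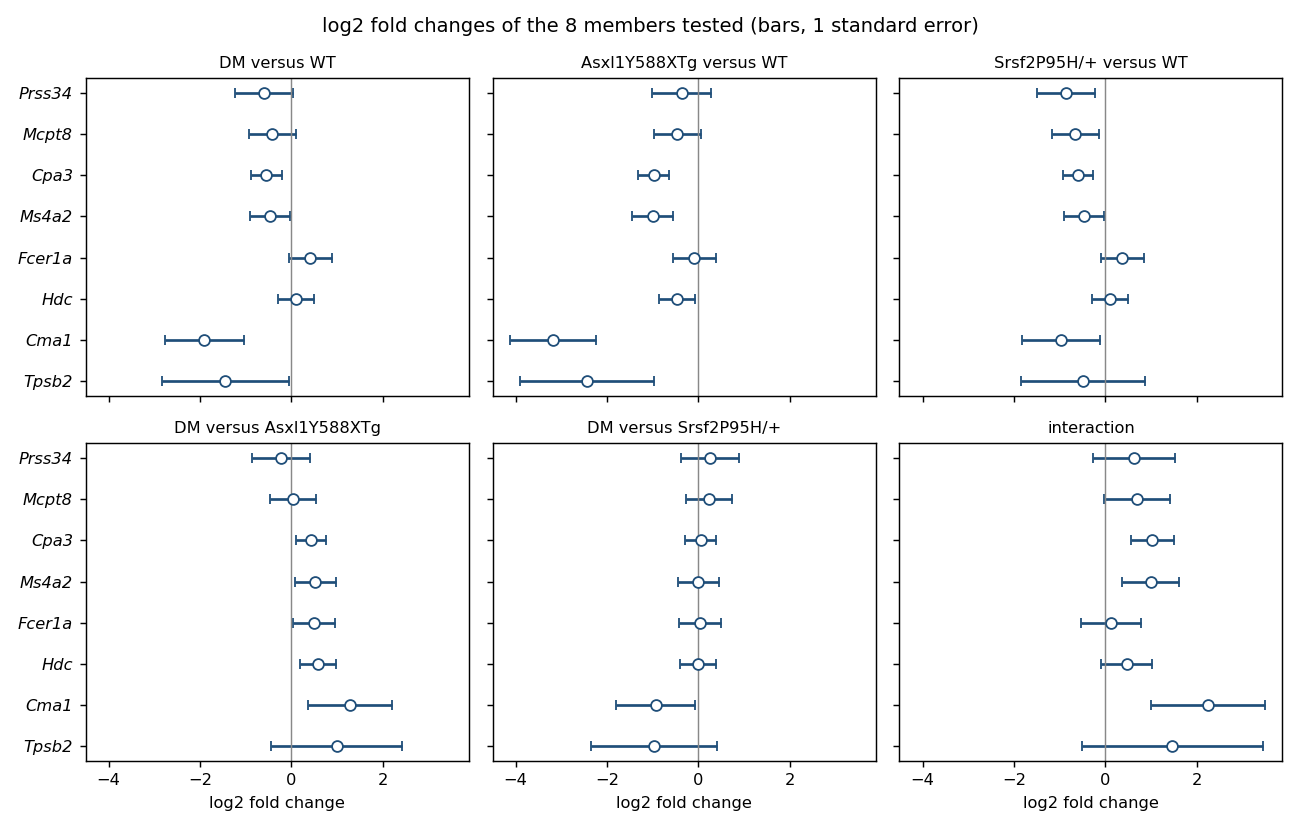
Each panel is 1 comparison, with the log2 fold change (for the interaction, the log2 difference of changes) of 8 genes on the horizontal axis and bars of 1 standard error. All points lie left of 0 for Asxl1Y588XTg versus WT, all lie right of 0 for the interaction, and no point passed an adjusted p of 0.05.

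The spread between mice of 1 genotype was wide for these genes. The pooled within-genotype SD of log2 CPM was 0.91 for Prss34, 0.75 for Mcpt8, 0.72 for Fcer1a, 0.70 for Ms4a2, 0.61 for Hdc and 0.50 for Cpa3, against a median of 0.32 over all genes tested. It was 1.38 for Cma1 and 2.11 for Tpsb2. Against genes of like level, for which the median SD was 0.12 to 0.59, each of the 8 stood at the 97.1st to 99.8th percentile. WT 3 was the lowest WT library for 7 of the 8 genes and Asxl1Y588XTg 4 the lowest of its genotype for 5. DM 3 was the highest DM library for 6, and Asxl1Y588XTg 1 and Srsf2P95H/+ 1 were each the highest of their genotype for 5.

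The genes fell into sets that moved together from mouse to mouse. Over the 16 libraries and 28 pairs of genes, Mcpt8 and Prss34 ran closest, with a Pearson r of 0.98 and a Spearman rho of 0.97 on log2 CPM (permutation test, adjusted p = 0.00028 for each, with unadjusted p = 1e-05, the smallest these permutations can give). The r was 0.98 without WT 4 and Asxl1Y588XTg 4, the libraries farthest from the median of Mcpt8, and 0.99 after subtraction of the genotype means. Cpa3 and Ms4a2 followed with r = 0.89 and rho = 0.92 (permutation test, adjusted p = 0.00028 for each, r = 0.88 without WT 2 and WT 4). Ms4a2 and Mcpt8 had r = 0.84 and rho = 0.84 (0.73 without WT 4 and Asxl1Y588XTg 4), with permutation adjusted p = 0.00028 and 0.000933. Cpa3 and Mcpt8 had r = 0.81 and rho = 0.80 (0.68 without the same libraries), with permutation adjusted p = 0.00112 and 0.00245. Prss34 had r = 0.76 with Cpa3 and with Ms4a2 (permutation adjusted p = 0.00296 and 0.00131). Fcer1a had r = 0.67 with Mcpt8, 0.66 with Ms4a2 and 0.62 with Prss34 (permutation adjusted p = 0.0127, 0.0222 and 0.0243). With Cpa3 it had r = 0.44 (permutation adjusted p = 0.187). For Fcer1a and Cpa3 r was 0.68 without WT 2 and WT 4, and 0.71 after subtraction of the genotype means. After the same subtraction Fcer1a had r = 0.86 with Mcpt8, 0.81 with Ms4a2 and 0.85 with Prss34.

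The rare mast cell proteases formed a pair of their own. Cma1 and Tpsb2 had r = 0.82 and rho = 0.78 (permutation test, adjusted p = 0.00112 and 0.00325), and r was 0.83 without Srsf2P95H/+ 1 and WT 1. Neither followed the basophil proteases. Cma1 and Mcpt8, both on chromosome 14 with 137490 bases between them, had r = -0.06 and rho = -0.08 (permutation adjusted p = 0.910 and 0.832, r = -0.37 without WT 4 and Asxl1Y588XTg 4). Tpsb2 and Prss34, both on chromosome 17 with 66139 bases between them, had r = -0.03 and rho = 0.04 (permutation adjusted p = 0.937 and 0.909, r = 0.12 without Asxl1Y588XTg 1 and WT 4). Mcpt8 and Cma1 lie on chromosome 14, and their closest partners by r, Prss34 and Tpsb2, lie on chromosome 17. The part of location in these correlations was not tested. Hdc had r between 0.23 and 0.57 and rho between 0.08 and 0.62 with the other 7 genes. Its highest r was with Ms4a2 (r = 0.57, rho = 0.41, permutation adjusted p = 0.0584 and 0.239). Its highest rho was with Cma1 (rho = 0.62, r = 0.39, permutation adjusted p = 0.0304 and 0.247), and r was 0.55 there without WT 3 and Asxl1Y588XTg 2. The summed level of the 9 genes was highest in WT 4, at 641.1 CPM, where the eosinophil genes were highest too, and lowest in Asxl1Y588XTg 4, at 128.1 CPM, where the eosinophil genes summed to 65.7 CPM. In Asxl1Y588XTg 1, the second highest at 578.9 CPM, the eosinophil genes summed to 138.6 CPM. The part of other cells in these levels was not tested.

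**Figure D4:**
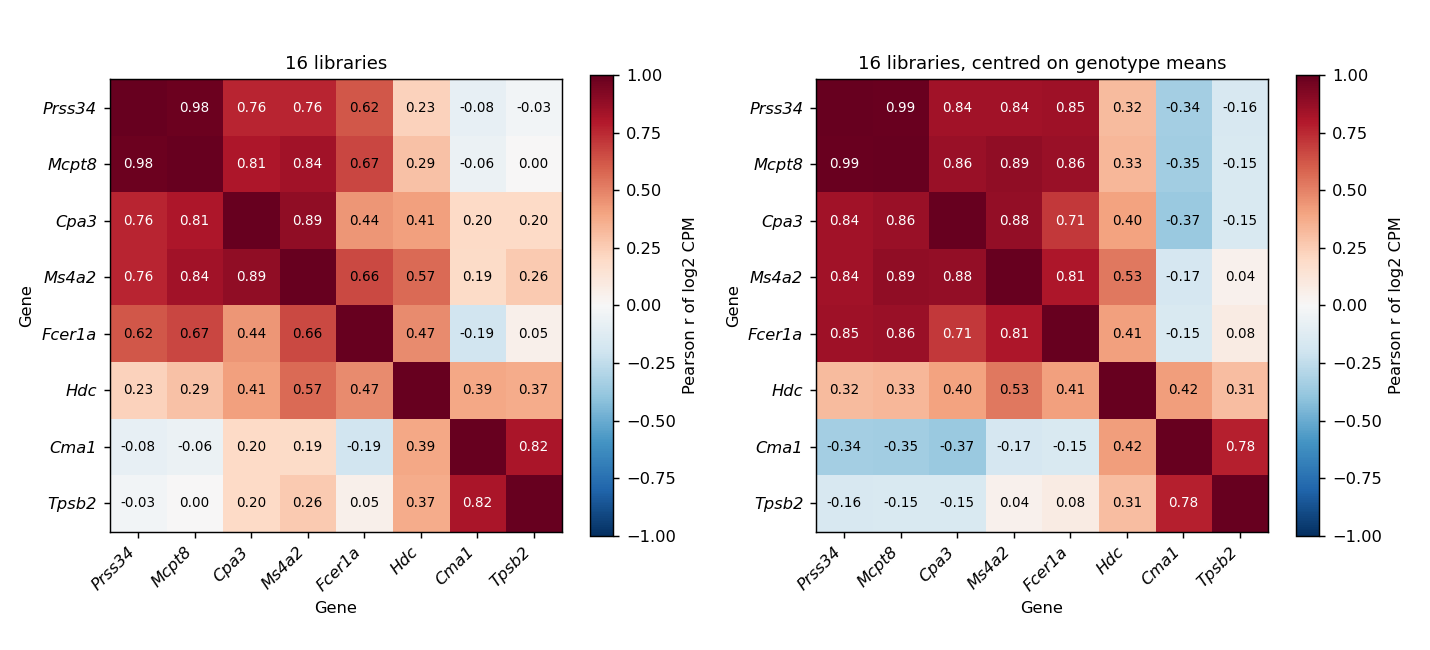
Pearson r of log2 CPM between 8 genes over 16 libraries (left) and after subtraction of genotype means (right), on a colour scale from -1 to 1. Mcpt8 and Prss34 (0.98 and 0.99) and Cma1 and Tpsb2 (0.82 and 0.78) form separate blocks, with values near or below 0 between them.

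**Figure D5:**
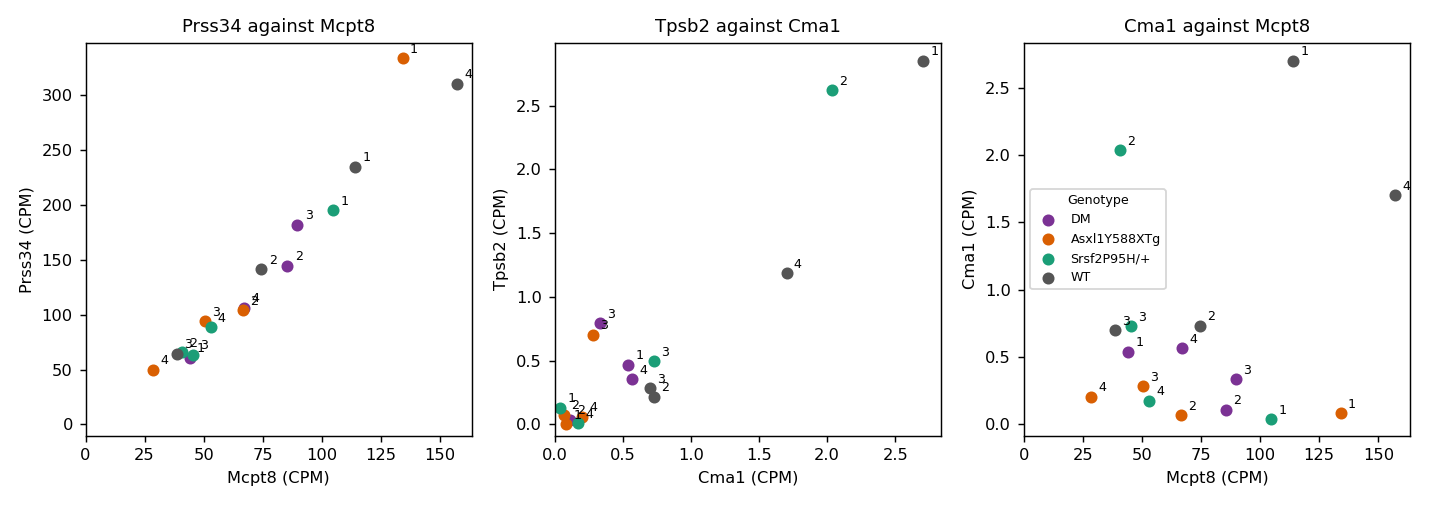
Each point is 1 mouse, numbered within its genotype, and both axes are linear levels in CPM. Prss34 and Mcpt8 run along a narrow band, Tpsb2 and Cma1 run together with most points near 0, and Cma1 shows no such band with Mcpt8.

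Outside the 9 genes, those whose levels were most like the mean standardised level of the 8 genes tested were sought among 14333 genes of at least 1 CPM. Alox5, the lipoxygenase that begins leukotriene synthesis, came first with r = 0.95 over 16 libraries. It was followed by Csrp3 (0.89), which encodes a LIM domain protein, Cyp11a1 (0.85), the enzyme that begins steroid synthesis, Atp8b1 (0.80), a phospholipid flippase, and Atp6v0a1 (0.79), a subunit of the vacuolar proton pump. After subtraction of genotype means the first 5 were Alox5 (0.95), Csrp3 (0.91), the chemerin receptor gene Cmklr1 (0.87), Gm50055 (0.81) and Septin3 (0.80). Alox5 averaged 11.5 ± 1.96 CPM in DM, 9.22 ± 3.49 CPM in Asxl1Y588XTg, 10.3 ± 2.55 CPM in Srsf2P95H/+ and 14.7 ± 8.002 CPM in WT.

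Of 19 signalling genes below the IgE receptor, all of them tested, 2 were called in DM versus WT, both lower in DM. There edgeR called 9.39% of all genes in either direction. The median log2 fold change of the list and of all genes was -0.02. Malt1, a scaffold protease of NF-kappaB signalling, averaged 46.7 ± 2.22 CPM in DM and 61.5 ± 5.64 CPM in WT (log2 fold change -0.40, edgeR adjusted p = 0.0118). Plcg1, a phospholipase C, averaged 94.7 ± 11.6 CPM in DM and 126.5 ± 21.9 CPM in WT (log2 fold change -0.42, edgeR adjusted p = 0.0416). In the comparison of Asxl1Y588XTg with WT, where 1.88% of all genes were called, Malt1 was the 1 called gene of the list, at 46.2 ± 5.57 CPM in Asxl1Y588XTg and 61.5 ± 5.64 CPM in WT (log2 fold change -0.41, edgeR adjusted p = 0.0194). By edgeR no gene of the list was called in Srsf2P95H/+ versus WT, where 0.506% of all genes were. There DESeq2 called 4 of the list and 2398 of 20375 genes in all. Limma-voom called 5 and 1703 of 22749, and the replicate block 4 and 952 of 22749. No gene of the list was called in the comparisons of DM with the single mutants by edgeR or in any alternative. Fcer1g, the shared gamma chain of the receptor, averaged 16.02 ± 1.15 CPM in DM, 16.9 ± 3.68 CPM in Asxl1Y588XTg, 15.5 ± 2.51 CPM in Srsf2P95H/+ and 17.4 ± 4.62 CPM in WT and was not called.

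Among 20 regulators and growth factor receptors, 1 was called in DM versus WT, higher in DM. There 9.39% of all genes were called in either direction. Another 1 was called in Asxl1Y588XTg versus WT, lower in Asxl1Y588XTg, against 1.88% of all genes in either direction. Mitf, a transcription factor of mast cells, averaged 13.7 ± 1.45 CPM in DM and 9.18 ± 1.13 CPM in WT (log2 fold change 0.58, edgeR adjusted p = 0.0159). Ikzf1, the zinc finger factor Ikaros, averaged 377.4 ± 8.44 CPM in Asxl1Y588XTg and 475.4 ± 27.5 CPM in WT (log2 fold change -0.33, edgeR adjusted p = 0.0228). Kit, the stem cell factor receptor that mast cells and LSK cells share, averaged 1042 ± 115 CPM in DM, 821.6 ± 128.6 CPM in Asxl1Y588XTg, 885.6 ± 117 CPM in Srsf2P95H/+ and 942.7 ± 58.9 CPM in WT. Gata2 averaged 206.1 ± 10.5 CPM in DM, 203.3 ± 27.9 CPM in Asxl1Y588XTg, 176.4 ± 23.1 CPM in Srsf2P95H/+ and 189.3 ± 19.2 CPM in WT. Gata1, its relative in mast cells and red cells, averaged 24.7 ± 3.06 CPM in DM, 17.5 ± 7.79 CPM in Asxl1Y588XTg, 17.6 ± 2.23 CPM in Srsf2P95H/+ and 18.7 ± 10.5 CPM in WT. By edgeR, Kit, Gata2 and Gata1 were called in none of the 6 comparisons.

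Of 26 other granule, mediator and surface genes, 20 passed the low-count filter. Of these, 4 were called higher and 1 lower in DM than in WT, where 9.39% of all genes were called and the median log2 fold change of the list was 0.09, against -0.02 over all genes. The 4 were Alox5ap, which presents arachidonic acid to the lipoxygenase, the lysosomal hexosaminidase gene Hexa, the granule membrane gene Cd63 and Srgn, the proteoglycan that packs granule proteases. Alox5ap averaged 79.0 ± 2.11 CPM in DM and 59.6 ± 4.55 CPM in WT (log2 fold change 0.41, edgeR adjusted p = 0.00168). Hexa averaged 144.3 ± 8.999 CPM in DM and 94.9 ± 17.9 CPM in WT (log2 fold change 0.60). Cd63 averaged 137.9 ± 8.66 CPM in DM and 94.6 ± 17.3 CPM in WT (log2 fold change 0.55), and Srgn 550.7 ± 40.8 CPM in DM and 421 ± 73.6 CPM in WT (log2 fold change 0.39). All 4 are widely expressed outside mast cells and basophils. The gene called lower was Hpgds, the prostaglandin D synthase of mast cells, at 3.603 ± 0.466 CPM in DM and 9.25 ± 1.34 CPM in WT (log2 fold change -1.36, edgeR adjusted p = 0.00310). In Asxl1Y588XTg versus WT, where 1.88% of all genes were called, 2 genes of the list were. Hexa was called higher (131 ± 14.4 CPM in Asxl1Y588XTg and 94.9 ± 17.9 CPM in WT) and Itga2, an integrin of the basophil surface, lower (8.87 ± 2.20 CPM in Asxl1Y588XTg and 16.7 ± 3.26 CPM in WT). From which cells the RNA of Hpgds and Itga2 came was not tested. In the comparison of Srsf2P95H/+ with WT, where 0.506% of all genes were called, Alox5ap was the 1 called gene of the list, higher at 73.5 ± 3.06 CPM in Srsf2P95H/+, against 59.6 ± 4.55 CPM in WT. By edgeR none was called in DM against either single mutant. In DM versus Asxl1Y588XTg DESeq2 called 1 of the list and 1123 of 21085 genes in all, and limma-voom 1 and 1112 of 22749.

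Of these 13 calls, 5 held in all 25 alternatives: Malt1, Hexa, Hpgds, Alox5ap and Cd63 in DM versus WT. Leaving out a single library ended the other 8, among them Mitf, which had an adjusted p of 0.0544 without DM 1. In Asxl1Y588XTg versus WT, Malt1 was lost without Asxl1Y588XTg 1, 3 or 4 or WT 3 or 4 (adjusted p up to 0.0966), and Ikzf1 without Asxl1Y588XTg 1, 3 or 4 or WT 2 or 3 (up to 0.0970). Hexa was lost there without Asxl1Y588XTg 1, 3 or 4 or WT 2, 3 or 4 (up to 0.124), and Itga2 without Asxl1Y588XTg 1 or 4 or WT 2, 3 or 4 (up to 0.121). In DM versus WT, Srgn was lost without DM 1, 2 or 4 or WT 3 or 4 (up to 0.0916), and Plcg1 without DM 1, 2 or 4, Asxl1Y588XTg 4, Srsf2P95H/+ 1, 3 or 4 or WT 2, 3 or 4 (up to 0.137). Alox5ap in Srsf2P95H/+ versus WT was lost without DM 2 or 4, Srsf2P95H/+ 1, 3 or 4 or WT 2, 3 or 4 (up to 0.118).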

How the data were processed

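RNA of LSK cells from 16 mice (4 per genotype) was read in pairs of 100 bp after preparation with the NEB Ultra RNA kit, per the labels' protocols. The authors deposited whole-number counts for 55291 gene symbols, with no scaling. Tools named per the submitters' processing notes are HTSeq 0.11.2, STAR 2.7.0e, Trimmomatic 0.38 and FastQC, with the mm10 build. Neither the annotation release nor the setting for strand was given in the sources used here. Libraries held 82991487 to 127596225 counts. The standard errors include the spread between mice, and floors cover counting error only.

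Differences were fitted to the counts in edgeR 4.0.16 under R 4.3.3 (filterByExpr with a minimum count of 10, TMM, robust quasi-likelihood fit on all 16 libraries), in 6 comparisons. The Benjamini-Hochberg adjustment ran over 22749 genes, and called means an adjusted p under 0.05. The pairs of genotypes next to each other in a gene's order of levels also used the comparison of Srsf2P95H/+ with Asxl1Y588XTg, from the same fit. CPM are TMM-scaled, and levels between genes are per kilobase of the exon union in GENCODE M21. Correlations used log2 CPM with a prior count of 2, with 100000 permutations and adjustment over 28 pairs.

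The members and lists were chosen with earlier results of these data known. Named genes were the 9 members, up to 6 genes per list (called genes by smallest p, then Kit, Gata2, Gata1, Mitf, Fcer1g and Srgn), and the 5 most alike by r. Of the members' log2 fold changes against the single mutants and in the interaction, those of the 3 most abundant genes are printed. That of Fcer1a is also printed for the interaction. Alternatives were DESeq2 1.42.0, limma-voom (limma 3.58.1) with quality weights, library size only, RLE factors, a filter of 1 CPM in 4 samples, no filter, compared groups only, the replicate block, each library left out, and a minimum absolute log2 fold change of 1. Leaving out both WT 4 and Srsf2P95H/+ 2 was added after seeing the data. The replicate numbers did not pair the libraries.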

Additional observations from a re-analysis of the deposited data

Results flagged for a closer look

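Within each genotype the highest or lowest mouse of each gene was compared with the other 3 by Dixon's ratio. Of 32 groups of the 8 genes tested, 1 stood apart. Chance sets apart about 1 in 20 groups where the values are normally distributed and the groups independent. Here the ratio was taken on CPM without a logarithm, and several genes ran together, so that rate need not hold. Tpsb2 stood at 0.7035 CPM in Asxl1Y588XTg 3, against 0 to 0.0766 CPM in the other 3 Asxl1Y588XTg mice. Asxl1Y588XTg 3 also had the highest Cma1 level of its genotype. Tpsab1 stood apart in all 3 genotypes where it was counted at all, at 0.00795 CPM in DM 3 (1 count), 0.1416 CPM in Srsf2P95H/+ 3 (14 counts) and 0.0634 CPM in WT 4 (7 counts). In DM and WT the other 3 mice had 0 counts, so that any count there gives the highest possible ratio, and the chance rate does not apply.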

How the results depend on the processing

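The count of members called was 0 in each of the 6 comparisons and stayed 0 under the alternatives, except with DESeq2. In Asxl1Y588XTg versus WT DESeq2 called 2 members, and 1722 of 21795 genes in all. With the replicate block the count of members was 0 in every comparison. Same-numbered libraries did not deviate together (correlations from -0.293 to 0.295 over 24 pairs, and 3 of 16 libraries closest to their own number). The count was also 0 with both WT 4 and Srsf2P95H/+ 2 left out.

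The sign was followed for 33 log2 fold changes of members. These were all genes tested in the comparisons with WT, and Mcpt8, Cpa3 and Prss34 in DM against the single mutants and in the interaction. The remaining log2 fold changes, some of them close to 0, were not followed. Of the 33, 8 changed sign in some alternative, and none of these 8 was called in any. In Asxl1Y588XTg versus WT that of Fcer1a was 0.23 with limma-voom and -0.39 to 0.40 with 1 library left out. In Srsf2P95H/+ versus WT that of Ms4a2 was 0.070 without both WT 4 and Srsf2P95H/+ 2, that of Hdc was -0.0086 with library size only and -0.19 to 0.30 with 1 library left out, and that of Tpsb2 was -2.41 to 0.53 with 1 left out. In DM versus WT that of Hdc was -0.0055 with library size only and -0.19 to 0.29 with 1 left out. In DM versus Asxl1Y588XTg that of Mcpt8 was -0.027 with library size only, -0.014 with the stricter filter and -0.23 to 0.54 with 1 left out. There that of Prss34 was 0.082 with limma-voom, 0.14 with the replicate block and -0.52 to 0.56 with 1 left out. In DM versus Srsf2P95H/+ that of Cpa3 was -0.028 with limma-voom, -0.070 without both libraries and -0.071 to 0.36 with 1 left out. The causes were not tested.

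The number of all genes called moved more. In Asxl1Y588XTg versus WT it was 428, with 121 (without Asxl1Y588XTg 4) to 2330 (without Asxl1Y588XTg 2) with 1 library left out, 1722 with DESeq2 and 1164 with limma-voom. In Srsf2P95H/+ versus WT it was 115, with 0 (without Srsf2P95H/+ 4) to 1638 (without WT 1), 2398 and 1703, and 952 with the replicate block. In DM versus WT it was 2135, with 586 (without DM 1) to 2660 (without DM 3), 3868 and 4311. In DM versus Asxl1Y588XTg it was 245, with 10 (without Asxl1Y588XTg 1) to 384 (without WT 4), 1123 and 1112. In DM versus Srsf2P95H/+ it was 56, with 20 (without Srsf2P95H/+ 4) to 63 (without WT 1), 234 and 103, and in the interaction 0, with 0 to 7 (without WT 1), 53 and 4. Of the 19 signalling genes, 0 were called in Srsf2P95H/+ versus WT by edgeR, 4 by DESeq2, 5 by limma-voom and 4 with the replicate block. Of the other granule, mediator and surface genes, 1 was called there by edgeR, 4 by DESeq2 and 3 by limma-voom, and in Asxl1Y588XTg versus WT edgeR called 2 (0 to 4 over the alternatives). In DM versus Asxl1Y588XTg edgeR called 0 of them, and DESeq2, limma-voom and edgeR without both WT 4 and Srsf2P95H/+ 2 called 1 each. Without both libraries edgeR called 655 of 22969 genes in all. In the same comparison 0 of the regulators were called by edgeR and 1 with the replicate block, which called 240 of 22749 genes. Of the regulators, 1 was called in each of Asxl1Y588XTg and DM versus WT (0 to 3 over the alternatives in both). Cma1, Tpsb2 and Tpsab1 rest on 1086, 1000 and 23 counts in all, and the spread of Cma1 and Tpsb2 between mice was at the 97.1st and 98.5th percentile of genes of like level.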
